A study of Rattus norvegicus with 79 samples.

Results

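The subject is the group of 9 antioxidant and glutathione enzymes Gpx1, Gpx4, Cat, Sod1, Sod2, Gclc, Gclm, Gstk1 and Gstt2, followed in CA1 tissue of the hippocampus in aged and young rats. They were taken as every probe set that the probe-to-gene table gives to 1 of these symbols alone, which are 9 of the 4736 genes on the array. The 9 genes had 19 such probe sets. A further probe set that the table gives to 10 genes, a member among them, was not used.

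The samples were 79 arrays, 1 per animal, of CA1 RNA from male Fischer 344 rats aged 3 or 24 months. Cage control rats stayed in their cages, yoked rats swam in the water maze with no platform, visible platform rats swam to a platform they could see and hidden platform rats were trained to find a submerged one. The young rats numbered 3 cage, 6 yoked, 4 visible and 6 hidden platform animals. The aged rats numbered 5 cage, 8 yoked, 8 visible and 39 hidden platform animals, of which the labels call 13 unimpaired and 10 impaired in learning, and mark 16 with a letter B that they do not explain. Animals were killed with pentobarbital 24 hours after their last trial. The tissue was a punch of the cell layer that holds neurons, glia and vessels together, so fewer cells of a type and less RNA per cell cannot be told apart in any value below.

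These enzymes dispose of reactive oxygen and of the products it leaves. Sod1 in the cytosol and Sod2 in mitochondria turn superoxide into hydrogen peroxide, which catalase (Cat) and the selenoenzyme glutathione peroxidase Gpx1 break down, while Gpx4 reduces peroxidised lipids in membranes and guards cells against ferroptosis. Gclc and Gclm are the catalytic and the modifier subunit of glutamate-cysteine ligase, the rate-limiting enzyme of glutathione synthesis, and Gstk1 and Gstt2 are glutathione transferases of the kappa and theta classes. Many genes of this kind, Gclm among them, are known targets of the transcription factor Nrf2 (Nfe2l2), which binds the antioxidant response element.

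The promoters of Gclm and Cat are shown because 1 probe set of each fell with age in the comparison given below. Neither call held without the cage controls. The promoter is the window from 250 bases before to 50 bases after the gene's start in RefSeq's annotation of the rat build GRCr8. The Gclm window is chr2:213031885-213032184 on the plus strand and the Cat window chr3:110329477-110329776 on the minus strand. Capitals mark the core of an antioxidant response element, searched on both strands as TGAC and GC with 3 bases between them.
Gclm: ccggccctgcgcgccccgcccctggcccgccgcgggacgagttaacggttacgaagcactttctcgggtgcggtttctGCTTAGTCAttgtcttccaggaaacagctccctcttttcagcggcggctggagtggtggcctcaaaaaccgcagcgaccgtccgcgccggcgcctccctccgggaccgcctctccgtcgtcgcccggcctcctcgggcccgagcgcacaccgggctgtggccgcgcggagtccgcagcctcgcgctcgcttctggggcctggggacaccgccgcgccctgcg
Cat: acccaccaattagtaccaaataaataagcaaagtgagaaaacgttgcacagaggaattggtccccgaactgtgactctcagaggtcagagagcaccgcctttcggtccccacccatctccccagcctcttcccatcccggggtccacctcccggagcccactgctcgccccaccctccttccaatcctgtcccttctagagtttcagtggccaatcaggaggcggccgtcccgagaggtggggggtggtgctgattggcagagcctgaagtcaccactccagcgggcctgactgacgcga
The Gclm match lies on the reverse strand and begins at position -172 from the gene's start, and no match lies in the Cat window. Sod2 also held a match, at -35. These were the 2 of the 10 promoters listed for 8 members that matched, and 12.1% of all 33469 promoters of this length held the motif. Gstt2 was not matched to a promoter.

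Of the 19 probe sets, 14 were among the 5244 tested, which are those left once the dimmest 40% by mean signal were removed. The other 5 were the single Gclc probe set, the Gclm probe sets S65555_at and S65555_g_at, the Cat probe set rc_AA926149_at and the Gpx1 probe set M21210_i_at. Gclc, whose probe set J05181_at had a median signal of 17.4 over all arrays and lay under 15 on 35 of them, therefore has no test. A signal is the deposited array value in MAS5 units, and differences are given on the scale of log2(signal + 15), which understates changes of low signals. The standard error of such a difference follows the sign ±. Each adjusted p is from limma, two-sided, with Benjamini-Hochberg adjustment over all probe sets tested, and the threshold is 0.05.

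Arrays differed in quality. On 14 of the 79, the Spearman correlation with the rest of the arrays had a median under 0.85, down to 0.223. These low-correlation arrays included 2 of 3 young cage, 2 of 4 young visible and 4 of 8 aged visible arrays but none of the 16 B arrays. The ratio of 3' to 5' control signals, in log2, averaged 1.07 ± 1.39 (SD, n = 3) in young cage rats against 3.70 ± 0.934 (SD, n = 5) in aged cage rats, and other groups averaged between 2.56 and 3.44. Of 12 listed markers of CA1 pyramidal neurons, 5 were tested and none was at 0 on any array, and their summed signal ran from 2635.1 to 72462.3. Results that rest on the low-correlation arrays are given with and without them. How many of all probe sets had groups without overlap was not counted, so statements on overlap below only describe signals.

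Across the 10 groups, 7 of the 14 tested probe sets of the enzymes differed (limma F test, 79 arrays), beside 25% of all probe sets tested. They were Gstt2 rc_AI138143_at (F = 6.84, adjusted p = 5.1e-05), Gpx4 (6.11, 0.000131), Cat rc_AA926149_g_at (4.59, 0.0016), Gstk1 S83436_i_at (4.17, 0.0034), Gclm (3.52, 0.0101), Gstt2 D10026_s_at (3.07, 0.0215) and Gpx1 X12367cds_s_at (2.84, 0.0308). None of the 3 Sod1 probe sets and not the Sod2 probe set passed. Without the low-correlation arrays, which leaves 1 young cage array, F was 7.85, 5.41, 4.34, 2.19, 1.77, 2.63 and 1.95 for the 7 in order. No p-value is given for that fit. The plot of signal by group shows each array for 6 of the probe sets.

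**Figure D1:**
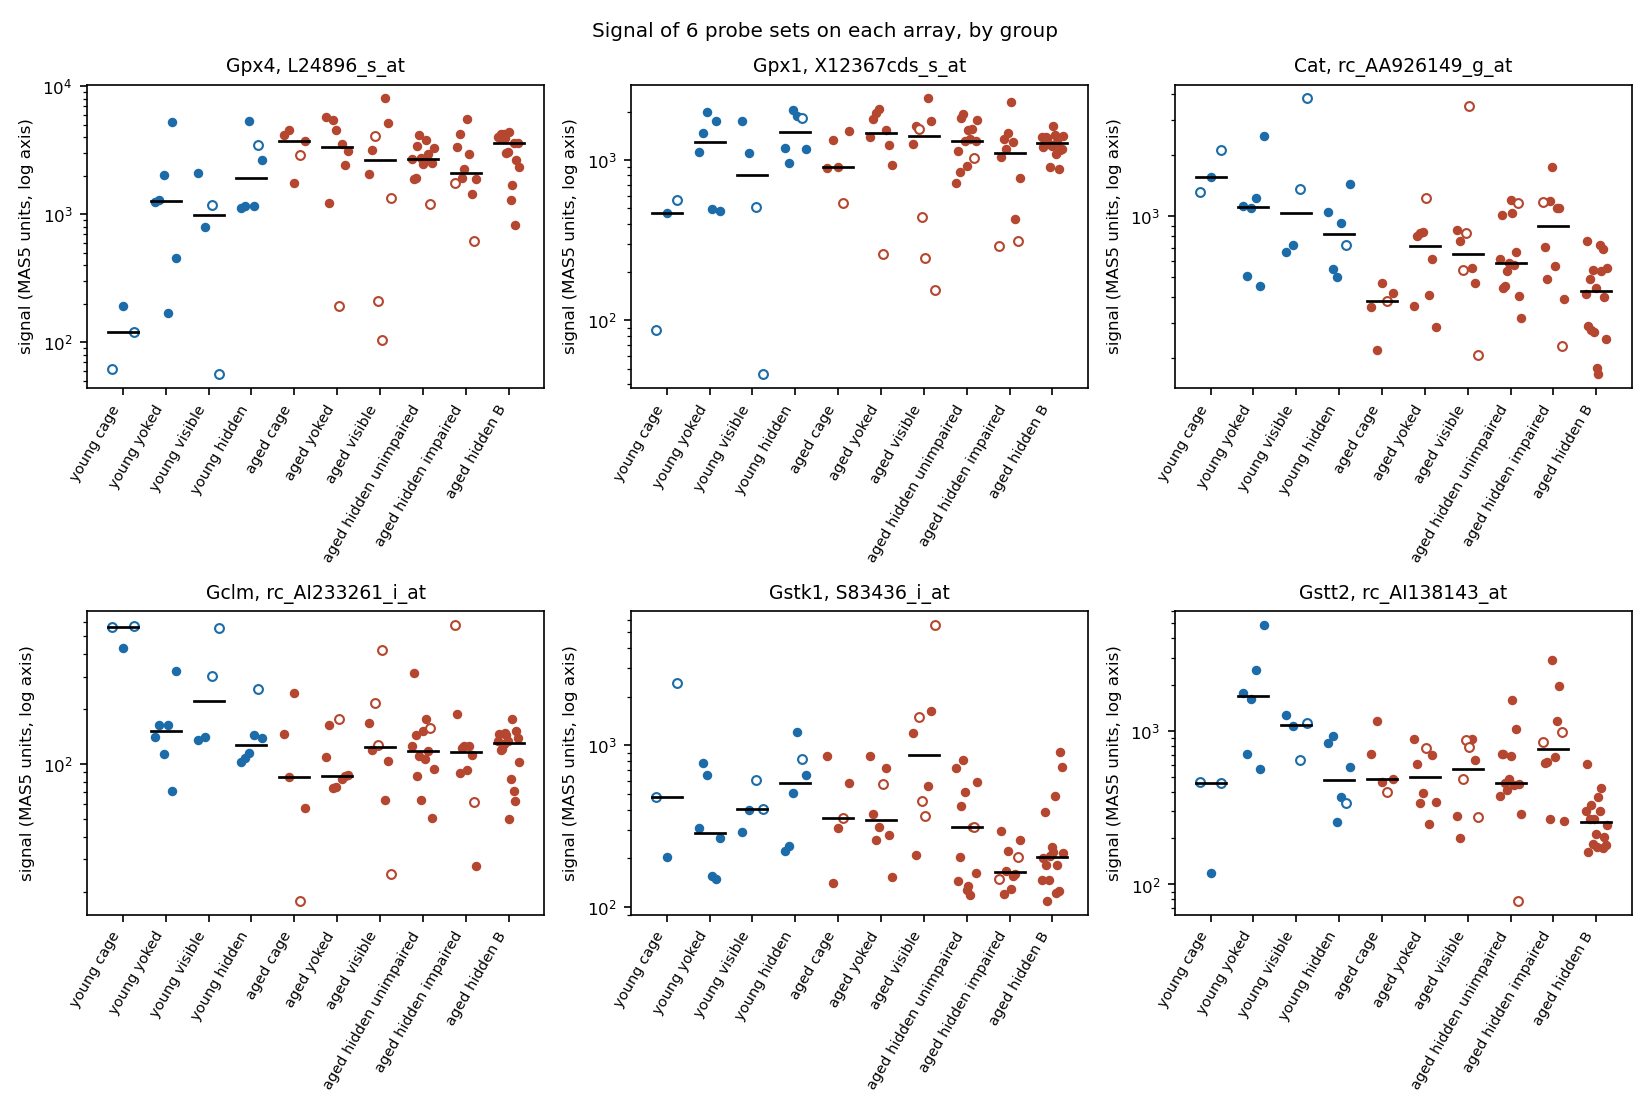
Signal in MAS5 units (log axis) of 6 probe sets on each of the 79 arrays, by group, with young arrays in blue and aged arrays in red. Black bars are group medians and open points are the 14 low-correlation arrays. The 3 young cage arrays lie at 61.9 to 192.7 for Gpx4, under every aged cage array.

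Gpx4, which reduces lipid peroxides, was measured by L24896_s_at. In young cage rats its signal was 61.9, 120.7 and 192.7, and in aged cage rats 1759.7, 2907.1, 3763.7, 4157.0 and 4525.2. Young visible rats had 56.3, 799.3, 1187.6 and 2117.4, young yoked rats ranged from 171.1 over a median of 1270.25 to 5266.3, and young hidden rats from 1127.4 over 1913.2 to 5325.8. The young cage rats lay under every young hidden and every aged cage rat but overlapped young visible and yoked rats, and the other young groups overlapped each other and the aged groups. Aged medians lay between 2081.3 in impaired and 3763.7 in cage rats, with B rats at 3597.85, yoked at 3347.55, unimpaired at 2703.5 and visible at 2635.75, and the ranges of these 6 groups overlapped. The order of group medians rose from young cage over young visible, yoked and hidden to the aged groups, and the ranges of neighbours in this order overlapped.

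The cytosolic peroxidase Gpx1 had 2 tested probe sets. With X12367cds_s_at, the young cage rats had 87.4, 470.3 and 563.6 and the young hidden rats ranged from 954.1 over 1501.1 to 2053.3. With X07365_s_at, the young cage rats had 544.9, 608.3 and 619.9 and the young hidden rats 1165.5 over 2013.95 to 4664.2. Young cage rats thus lay under all young hidden rats by both probe sets, and under all unimpaired and B rats too. The other groups overlapped each other, with medians by X12367cds_s_at from 805.25 in young visible to 1501.1 in young hidden rats and by X07365_s_at from 1099.9 in aged cage to 2167.95 in aged visible rats.

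Catalase by rc_AA926149_g_at ran the other way. Its signal was 1322.3, 1556.9 and 2112.1 in young cage rats and 220.0, 356.4, 382.1, 420.7 and 468.2 in aged cage rats, without overlap. Other young medians were 1111.7 in yoked, 1043.1 in visible and 821.45 in hidden rats, and aged medians 899.55 in impaired, 712.1 in yoked, 656.25 in visible, 587.9 in unimpaired and 429.65 in B rats. These groups overlapped. The second tested probe set, M11670_at, had group medians from 96.5 in aged yoked to 187.5 in young cage rats, and the only groups without overlap were impaired rats, from 117.4, and young yoked rats, up to 115.3. In the untested rc_AA926149_at group medians ran from 36.95 to 110.8.

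Gclm by rc_AI233261_i_at was 432.7, 561.8 and 569.9 in young cage rats and 17.8, 57.3, 84.3, 145.8 and 245.2 in aged cage rats, again without overlap. Young visible rats had 134.7, 140.1, 301.0 and 554.3, young yoked rats ranged from 70.8 over 150.95 to 320.9 and young hidden rats from 102.2 over 126.85 to 256.6. Medians of the aged groups lay between 84.3 in cage and 130.85 in B rats, so that young cage rats stood above every group median. The untested Gclm probe set S65555_g_at also had its highest group median in young cage rats, at 154.2 against 103.75 in young hidden rats, and S65555_at had its highest in aged cage rats, at 87.6.

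The catalytic subunit Gclc had a low signal in most rats. Its group medians by J05181_at ran from 11.6 in young cage to 61.6 in young visible rats, and its highest signal, 478.8, was in 1 impaired rat. Gpx1 M21210_i_at, untested like Gclc, had group medians from 10.85 to 21.8.

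The age comparison set 44 aged rats, without the B rats, against 19 young rats, adjusted for treatment. Gpx4 rose and Cat and Gclm fell, each by 1 probe set, so that 3 of 14 tested probe sets passed, beside 5.13% of all tested. Of these, 1 was higher, beside 3.2% of all, and 2 were lower, beside 1.93%. Gpx4 rose by 1.37 ± 0.38 (adjusted p = 0.0217) and exceeded the young mean of its treatment in 33 of 44 aged rats. Cat rc_AA926149_g_at fell by 0.76 ± 0.22 (adjusted p = 0.0309, lower in 33 of 44), and Gclm fell by 0.74 ± 0.23 (adjusted p = 0.0417, lower in 34 of 44). The median over the 14 was -0.08, against -0.05 over all probe sets tested.

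The 3 calls were lost once the cage controls were left out. Without the cage rats of both ages none of the 14 passed. The difference was then 0.80 ± 0.39 for Gpx4 (adjusted p = 0.387), -0.52 ± 0.24 for Cat (adjusted p = 0.358) and -0.45 ± 0.23 for Gclm (adjusted p = 0.42). Without the low-correlation arrays Gpx4 (1.39 ± 0.29, adjusted p = 0.000982) and Cat (-0.59 ± 0.21, adjusted p = 0.0485) passed, Gclm did not (-0.44 ± 0.19, adjusted p = 0.105), and the Sod1 probe set M25157mRNA_i_at did (-0.33 ± 0.11, adjusted p = 0.0325). These were 3 of the 14, beside 727 of all 5244 probe sets in that setting. Leaving out single arrays ended the call for Gpx4 in 2 of 63 omissions, for Cat in 5 and for Gclm in 21. No call remained without young cage rat 70 or young visible rat 65, and 1 remained without young cage rat 74 or 76 or young yoked rat 60. The calls also ended after quantile normalization (adjusted p = 0.0818, 0.0834 and 0.0692 for Gpx4, Cat and Gclm) and with each array centred on its median (adjusted p = 0.0878, 0.0625 and 0.0624), and with array quality weights those of Cat (-0.41 ± 0.17, adjusted p = 0.0793) and Gclm (-0.38 ± 0.17, adjusted p = 0.0907) ended. With these weights Sod1 M25157mRNA_i_at (-0.35 ± 0.11, adjusted p = 0.0213) and Y00404_s_at (-0.24 ± 0.08, adjusted p = 0.0275) passed. The weights called 3 of the 14, beside 1134 of all 5244 probe sets. Gclm also ended without a filter on low signals (adjusted p = 0.0668), while all 3 passed with the ratio of 3' to 5' controls in the fit (Gpx4 1.13 ± 0.26, adjusted p = 0.00375).

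A few markers of other cell types passed in the age comparison. Of 8 tested astrocyte markers 1 rose and none fell, and all 8 lay higher in aged rats. Their summed signal was 8303.5 to 211483.8 in aged and 26158.1 to 123512.1 in young rats. Of 5 tested microglia markers 1 rose and none fell, and 4 lay higher. Their summed signal was 2313.9 to 11275.5 in aged and 2266.5 to 9013.0 in young rats. Of 9 tested interneuron markers 1 fell, and 3 lay higher. None of 8 tested oligodendrocyte markers passed, and 3 of them lay higher in aged rats. None of the astrocyte, microglia, interneuron or oligodendrocyte markers was at 0 on any array, and their part in the result was not tested.

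**Figure D2:**
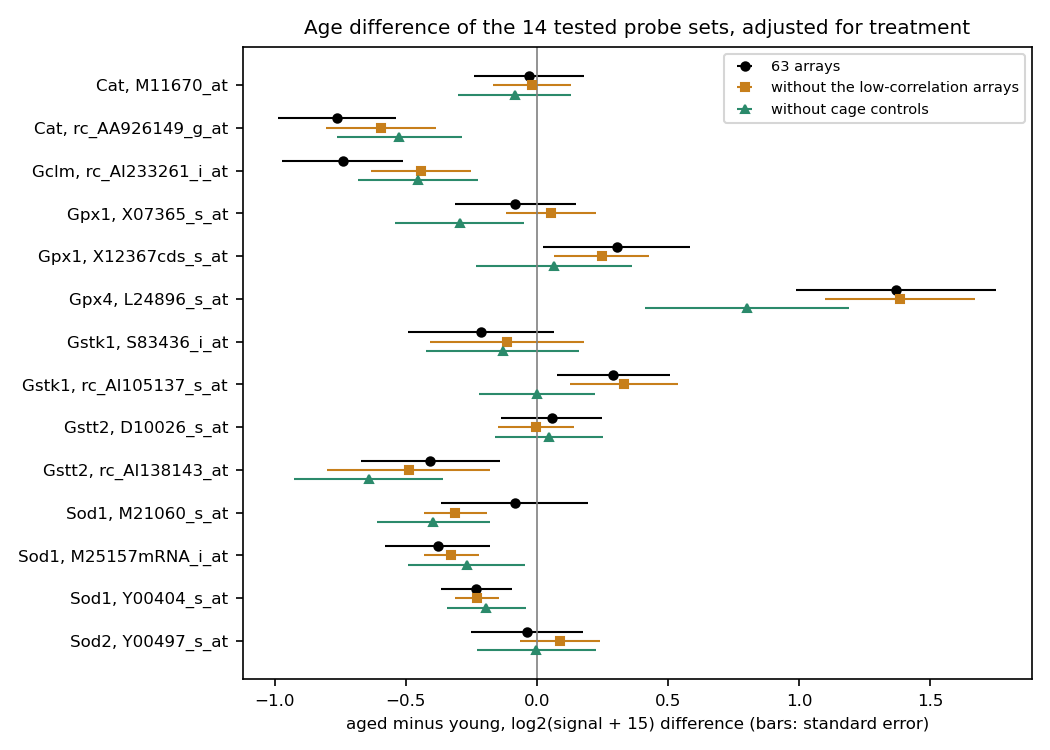
Aged minus young difference in log2(signal + 15), adjusted for treatment, of the 14 tested probe sets, with standard errors. Black circles use 63 arrays, orange squares leave out the low-correlation arrays and green triangles the cage controls. Gpx4 lies at 1.37 with all arrays and 0.80 without cage controls.

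The superoxide dismutases and the transferases did not pass. The age difference was -0.38 ± 0.20 for Sod1 M25157mRNA_i_at, -0.23 ± 0.14 for Y00404_s_at and -0.08 ± 0.28 for M21060_s_at, and -0.04 ± 0.21 for Sod2. It was -0.41 ± 0.27 and 0.06 ± 0.19 for the Gstt2 probe sets, and 0.29 ± 0.22 and -0.21 ± 0.28 for those of Gstk1. Gpx1 gave 0.30 ± 0.28 and -0.08 ± 0.23, and Cat M11670_at -0.03 ± 0.21. Each of these differences lay within 2 standard errors of 0. The within-array difference between probe sets of the same gene moved with age in none of the 7 pairs the enzymes allow, beside 5.66% of 1326 such pairs, and the Cat pair came closest (-0.73 ± 0.27, adjusted p = 0.0881).

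An interaction term asked if treatment altered the age difference. None of the 14 passed, beside 0.305% of all probe sets. An unadjusted p under 0.05 was seen for 7 of the 14 and for 751 of all 5244 probe sets. Among the 14, Gpx4 (F = 5.76, adjusted p = 0.0832) and Gstt2 rc_AI138143_at (F = 5.27, adjusted p = 0.101) had the highest F. The Gpx4 age difference was 4.66 ± 0.91 in cage, 1.14 ± 0.67 in yoked, 1.36 ± 0.76 in visible and 0.23 ± 0.57 in hidden platform rats. That of Cat was -2.14 ± 0.56, -0.68 ± 0.42, -0.84 ± 0.47 and -0.22 ± 0.35 in the same order, and that of Gclm -2.42 ± 0.57, -0.47 ± 0.42, -0.88 ± 0.48 and -0.20 ± 0.36. For all 3 genes the cage rats gave the widest difference and the hidden platform rats the narrowest. These genes had passed in the age comparison only with the cage rats in it, so a wide cage difference follows from that choice. The cage values rest on 3 young arrays, 2 of them of low correlation. Gstk1 rc_AI105137_s_at, at 39.3, 51.4 and 115.8 in young and 244.3, 278.4, 287.8, 320.7 and 333.4 in aged cage rats, gave 1.98 ± 0.53 in cage, -0.06 ± 0.39 in yoked, 0.01 ± 0.44 in visible and 0.06 ± 0.33 in hidden platform rats, and only its cage rats did not overlap. Gstt2 rc_AI138143_at gave 0.96 ± 0.62 in cage, -1.63 ± 0.46 in yoked, -1.02 ± 0.52 in visible and 0.33 ± 0.39 in hidden platform rats. Without the low-correlation arrays, which leaves 1 young cage array, its interaction F was 7.36, and no p-value is given for that fit.

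**Figure D3:**
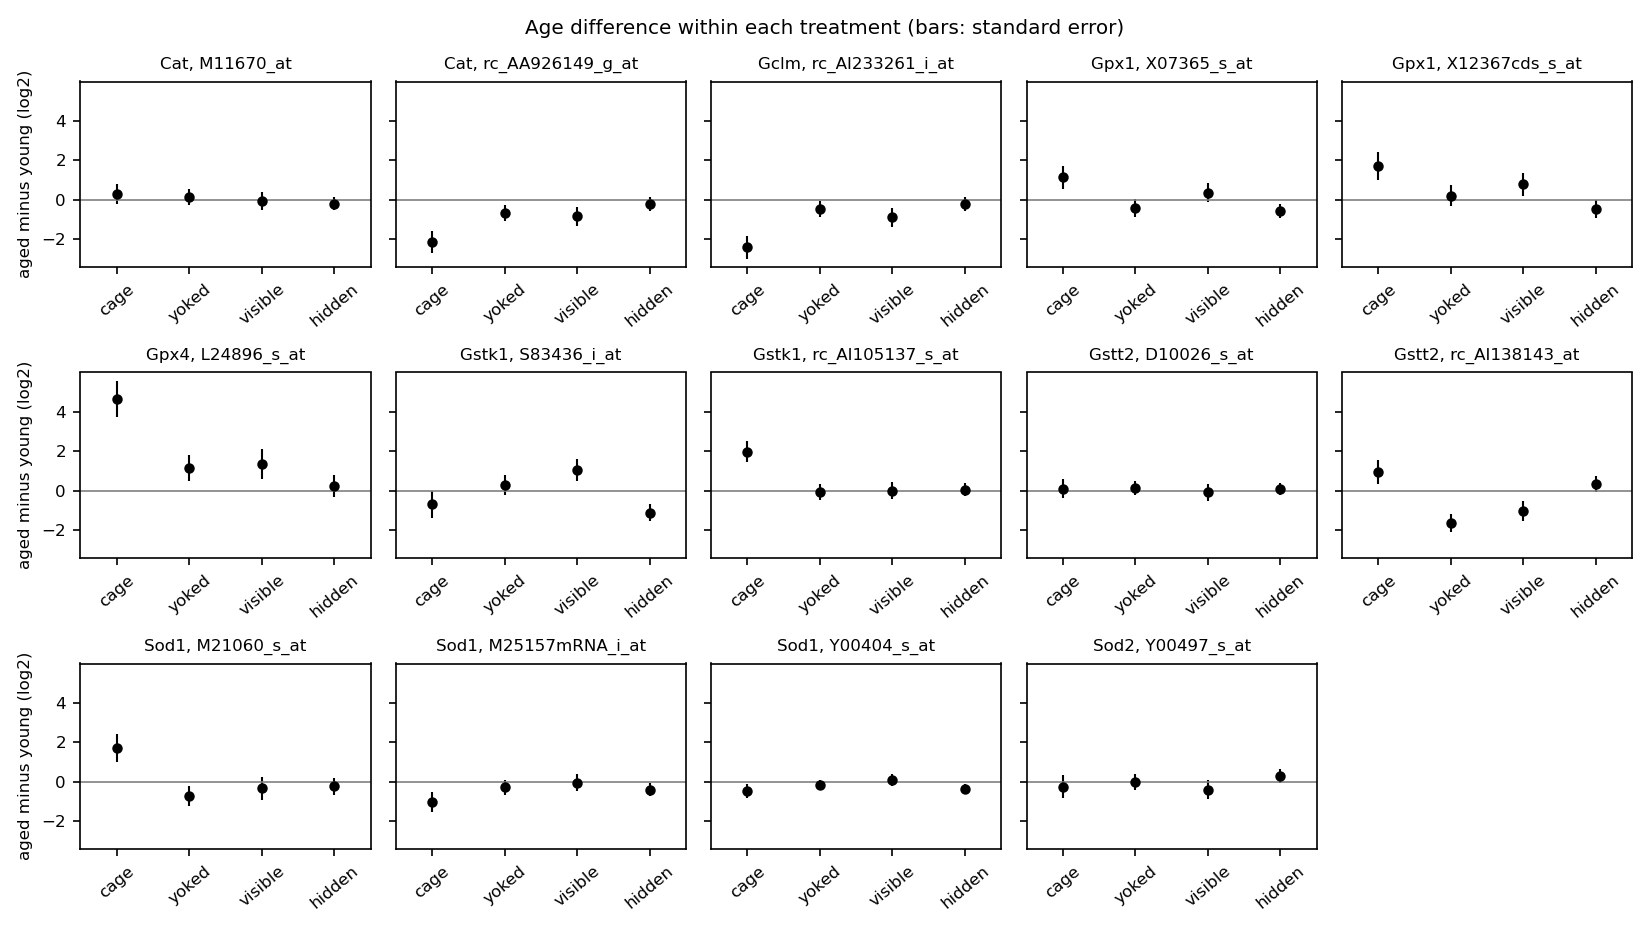
Aged minus young difference in log2(signal + 15) within each treatment, for the 14 tested probe sets, with standard errors. Gpx4 lies at 4.66 in cage and 0.23 in hidden platform rats, and Gclm at -2.42 and -0.20.

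In young rats, hidden platform training was compared with the 3 control conditions. Against cage rats, Gpx4 (4.0 ± 0.89, adjusted p = 0.0201) and Gpx1 X07365_s_at (1.82 ± 0.49, adjusted p = 0.0358) were higher and Gclm was lower (-1.81 ± 0.46, adjusted p = 0.0305). These were 3 of 14 tested probe sets, beside 5.28% of all, with 2 higher beside 4.35% and 1 lower beside 0.934%. Each held in 6 of 6 hidden platform rats. Gpx1 X12367cds_s_at gave 2.26 ± 0.75 (adjusted p = 0.07). An unadjusted p under 0.05 was seen for 5 of the 14 and for 1250 of all 5244 probe sets. Gpx4 had no second probe set, and Gstk1 rc_AI105137_s_at gave 1.54 ± 0.59 (adjusted p = 0.114).

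All 3 calls ended with each array centred on its median, with differences about as large (Gpx4 4.16 ± 1.00, adjusted p = 0.0515, Gpx1 1.99 ± 0.55, adjusted p = 0.0764, and Gclm -1.64 ± 0.40, adjusted p = 0.0515). They ended too without the low-correlation arrays, which leaves 1 cage rat (Gpx4 3.17 ± 1.21, adjusted p = 0.263), and with the ratio of 3' to 5' controls in the fit (Gpx4 1.61 ± 0.71, adjusted p = 0.999). They also ended without cage rat 70 or cage rat 76, and 1 of them remained without hidden platform rat 3, 37 or 38. The ratio was 3.26 ± 0.407 (SD, n = 6) in the hidden platform rats against the 1.07 of the cage rats, and 2 of 4 tested blood markers rose in the same comparison, with a summed signal of 2336.1 to 8609.6 against 1165.0 to 2872.3 and none at 0, while the other 2 did not lie higher. Of the other markers tested, 1 of 8 astrocyte, 1 of 8 oligodendrocyte and 1 of 5 CA1 pyramidal markers rose and 1 of 5 markers of dentate gyrus and CA3 fell. The summed signals in hidden platform against cage rats were 41044.4 over 60832.05 to 73328.0 against 26158.1 over 67958.2 to 70072.1 for astrocytes. They were 6038.1 over 15736.85 to 24043.1 against 6162.1 over 7360.8 to 8284.8 for oligodendrocytes. For pyramidal neurons they were 18027.6 over 31742.8 to 40282.3 against 13637.1 over 30109.3 to 32491.0. Markers of dentate gyrus and CA3 gave 2850.0 over 3404.95 to 5532.5 against 5361.6 over 5968.4 to 6391.8. None of these markers was at 0. Their part in the result was not tested. Against visible platform and yoked rats none of the 14 passed, as was so for 0.0% of all probe sets, with 274 and 93 of all probe sets at an unadjusted p under 0.05. Gstt2 rc_AI138143_at lay lower than in yoked rats in 6 of 6 hidden platform rats (-1.62 ± 0.47, adjusted p = 0.999), at 256.7 over 477.2 to 930.0 against 568.4 over 1684.35 to 4902.8. Young visible against yoked rats gave no call either, with 74 of all probe sets at an unadjusted p under 0.05 and none of the 14.

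In aged rats, Gstk1, a glutathione transferase of mitochondria and peroxisomes, lay lower in hidden than in visible platform rats by S83436_i_at. Its signal ranged in visible platform rats from 209.7 over 875.9 to 5564.8, in unimpaired rats from 118.2 over 313.1 to 812.7 and in impaired rats from 121.0 over 163.95 to 296.7. The groups overlapped, but all 23 hidden platform rats lay under the visible platform mean. The median was 344.95 in aged yoked and 357.9 in aged cage rats, so visible platform rats had the highest median of the aged groups. Low-correlation arrays made up 4 of the 8 visible platform arrays. The difference between hidden and visible platform rats, -1.87 ± 0.37 (adjusted p = 0.0302), was the only call among all 5244 probe sets (0.0191%). An unadjusted p under 0.05 was seen for 598. Hidden platform against cage rats gave -0.71 ± 0.44 (adjusted p = 0.742). The hidden against visible platform difference is followed here. It did not pass without the low-correlation arrays (-1.56 ± 0.46, adjusted p = 0.171), with each array centred on its median (-1.72 ± 0.40, adjusted p = 0.0986) or after quantile normalization (-1.89 ± 0.40, adjusted p = 0.0642), nor without impaired rat 51 or visible platform rat 31, 33, 96 or 97.

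The other Gstk1 probe set, rc_AI105137_s_at, gave 0.10 in the same comparison, with medians of 266.7 in visible, 253.8 in unimpaired and 257.35 in impaired rats. The log2 difference between the probe sets within each array moved by -1.97 ± 0.44 (adjusted p = 0.0279 over 1326 pairs of probe sets of the same gene, limma). It was 1 of 7 pairs of the enzymes, beside 0.151% of all pairs. Without the low-correlation arrays the pair moved by -1.05 ± 0.53 (adjusted p = 0.515), and the call also ended in 6 of 44 omissions of single arrays. The 2 probe sets of Gstk1 therefore do not give 1 answer on this comparison.

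No other comparison among the aged rats without the B rats called a member. Impaired and unimpaired rats differed in none of the 14, as in 0.0% of all probe sets, where 677 had an unadjusted p under 0.05. Cat M11670_at came closest, at 117.4 over 150.9 to 808.0 in impaired against 42.1 over 98.8 to 141.2 in unimpaired rats (0.84 ± 0.30, adjusted p = 0.312, higher in 10 of 10). Hidden platform against yoked and cage rats, and visible platform against both, called none of the 14 and 0.0% of all probe sets, with between 155 and 501 of all at an unadjusted p under 0.05. Yoked against cage rats called none of the 14 and 0.0191% of all. Cat rc_AA926149_g_at gave 0.92 ± 0.37 in hidden platform against cage rats (adjusted p = 0.43, higher in 21 of 23).

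The 16 B rats are described only as labelled. Against impaired rats, both Gstt2 probe sets and Cat rc_AA926149_g_at fell, which is 3 of 14, all lower, beside 6.2% of all probe sets called lower, 5.8% called higher and 12.0% called either way. Gstt2 rc_AI138143_at was 162.3 over 254.15 to 610.9 in B rats and 259.3 over 760.35 to 2897.2 in impaired rats. By D10026_s_at it was 90.4 over 134.15 to 349.4 against 133.2 over 269.6 to 913.2. Gstt2 lay lower in 16 of 16 B rats than the impaired mean by the first and in 15 of 16 by the second, with ranges that overlapped.

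The differences were -1.58 ± 0.31 (adjusted p = 0.00139) and -1.0 ± 0.27 (adjusted p = 0.0149) for Gstt2 and -0.89 ± 0.29 for Cat (adjusted p = 0.0393, lower in 15 of 16). Cat M11670_at (-0.69 ± 0.26, adjusted p = 0.0659) and Sod2 (-0.76 ± 0.27, adjusted p = 0.0504) had the same sign without passing. Centring each array on its median moved the median of all probe sets from -0.03 to 0.35, turned the split of all calls from 304 higher and 325 lower to 939 and 112, and ended the Cat call (-0.50 ± 0.31, adjusted p = 0.217), as did quantile normalization (-0.64 ± 0.34, adjusted p = 0.206, with 329 and 97 of all). Relative to the median of all probe sets, Gstt2 rc_AI138143_at lay at -1.54 and Cat at -0.85 as reported, and at -1.57 and -0.82 after quantile normalization. Median centring leaves these relative values as they are by its construction. The 3 calls held without the low-correlation arrays, where 490 of all 5244 probe sets passed. Of the 14, 5 passed without impaired rat 47 or aged visible rat 97. Over all omissions of single arrays, 187 to 895 of all probe sets passed. In omissions of single arrays the Cat call held in 49 of 60, with an adjusted p of up to 0.101, and ended without impaired rat 8, 48, 50 or 56 or B rat 11, 13, 17, 41, 43, 88 or 90. The call of Gstt2 D10026_s_at ended without impaired rat 83 (adjusted p = 0.0654), and that of rc_AI138143_at held in 60 of 60.

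Some markers of vessels and of neurons passed in this comparison. Of 6 tested endothelial and mural markers, 2 fell in B rats and none lay higher, with none at 0. Their summed signal was 544.8 over 812.25 to 2368.2 in B rats against 692.9 over 1291.35 to 4890.9 in impaired rats. Of 9 tested interneuron markers 2 rose and 7 lay higher, with a summed signal of 11407.9 over 13334.5 to 17610.0 against 4078.1 over 11282.45 to 13845.7. Of 5 tested CA1 pyramidal markers 1 rose and all 5 lay higher. The medians of their summed signal were close, at 27873.2 over 35641.9 to 55063.5 against 2635.1 over 35038.45 to 38212.4. Low-correlation arrays were 2 of the 10 impaired and none of the 16 B arrays. The part of these markers in the result was not tested. Against unimpaired rats the 14 gave no call beside 0.0572% of all probe sets, and Gstt2 rc_AI138143_at lay at -0.90 ± 0.29 (adjusted p = 0.278, lower in 15 of 16). Without the low-correlation arrays that difference was -1.10 ± 0.27 (adjusted p = 0.0258), and 87 of all 5244 probe sets passed there. Against young hidden platform rats no member passed, as was so for 0.0% of all, with 424 of all probe sets at an unadjusted p under 0.05, and Cat gave -1.0 ± 0.36 (adjusted p = 0.388, lower in 16 of 16).

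**Figure D4:**
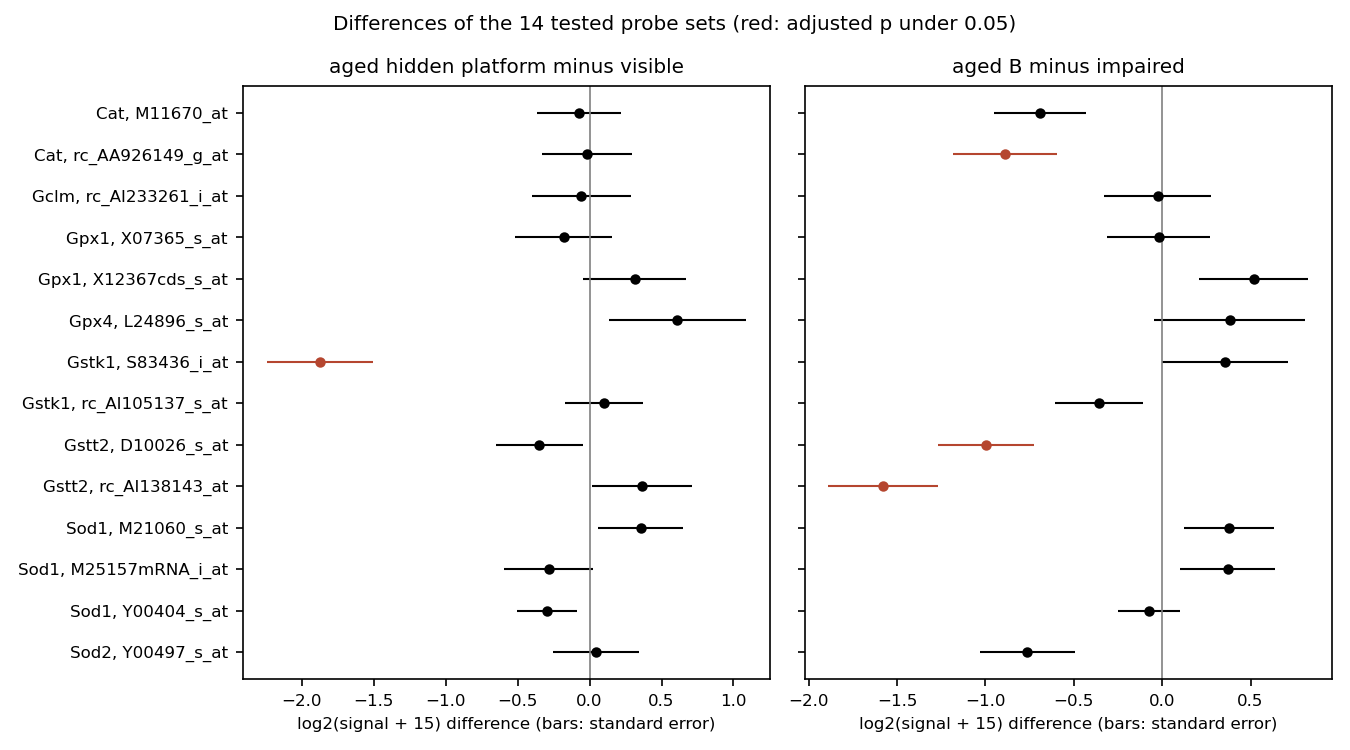
Differences in log2(signal + 15) with standard errors of the 14 tested probe sets, aged hidden minus visible platform rats at left and B minus impaired rats at right, with calls in red. Gstk1 S83436_i_at lies at -1.87 at left while its other probe set lies at 0.10, and both Gstt2 probe sets lie below 0 at right.

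Probe sets of the same gene were compared over all 79 arrays by the correlation of their log2 signals. For Gpx1, Pearson's r was 0.657 and Spearman's rho 0.668 (permutation test, adjusted p = 4.5e-05 and 4.6e-05 over 1326 pairs), and r was 0.626 without the 2 farthest arrays. Sod1 Y00404_s_at and M25157mRNA_i_at gave 0.753 and 0.728 with the same p-values, and 0.701 without the 2 farthest. These p-values are the smallest that 100000 permutations can give after adjustment. The median of all pairs was 0.25 by Pearson's r.

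The other pairs ran closer to that median or under it. Gstt2 gave r = 0.236 (permutation, adjusted p = 0.06) and rho = 0.339 (adjusted p = 0.00565), with r = 0.216 without the 2 farthest arrays. Cat gave 0.215 and 0.227 (adjusted p = 0.0874 and 0.0732, r = 0.171 without the 2 farthest), and Gstk1 0.0838 and 0.0911 (adjusted p = 0.536 and 0.504, r = 0.142). Sod1 M21060_s_at gave -0.266 and 0.0644 with Y00404_s_at (adjusted p = 0.0512 and 0.649, r = -0.229) and -0.103 and 0.0422 with M25157mRNA_i_at (adjusted p = 0.392 and 0.769, r = 0.0552). Over the 65 arrays that were not of low correlation, r was 0.217 and 0.146 for these 2 Sod1 pairs, 0.244 for Gstk1 and 0.386 for Gstt2, so the negative Sod1 values rest on the low-correlation arrays. Arrays of different groups are pooled in these values.

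**Figure D5:**
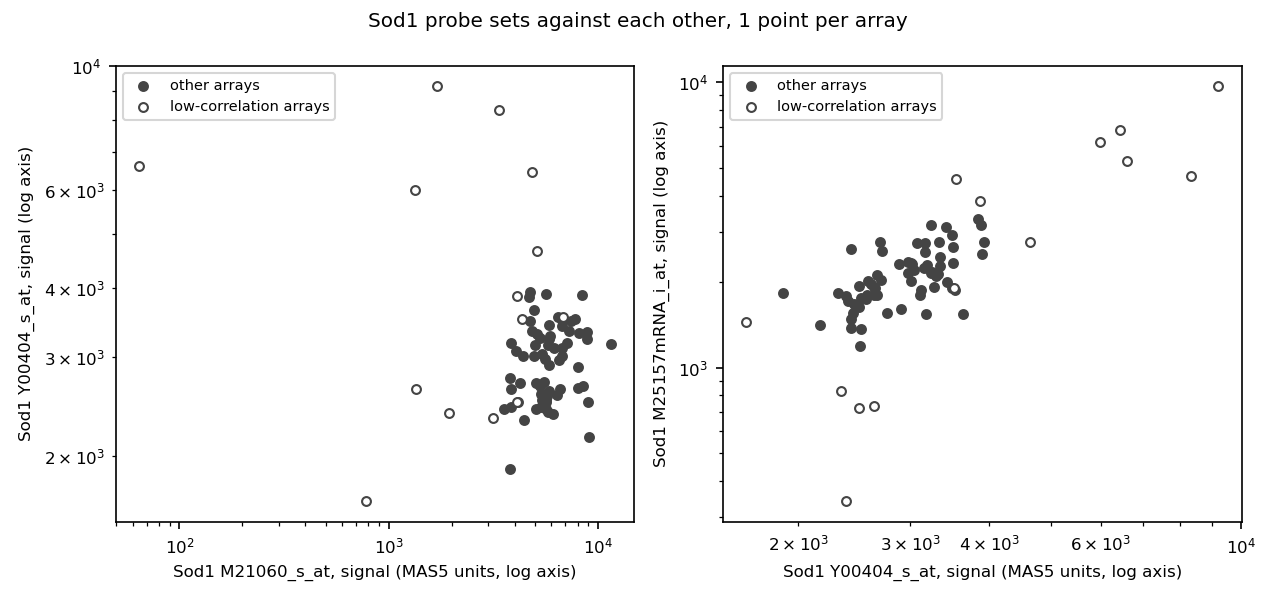
Signals (log axes) of Sod1 probe sets on each of the 79 arrays, with open points for the low-correlation arrays. At left M21060_s_at spreads down to 64.4 on 1 young cage array while Y00404_s_at does not fall with it, and at right Y00404_s_at and M25157mRNA_i_at rise together.

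For Sod1 itself, which had high signals on most arrays, M21060_s_at was 64.4, 6781.2 and 8865.5 in young cage rats, and all other group medians lay between 4857.6 and 8098.15. By Y00404_s_at the group medians lay between 2620.2 in B and 3681.4 in young visible rats, and by M25157mRNA_i_at between 1807.25 in impaired and 4589.5 in young cage rats. Sod2 medians lay between 181.8 in B and 301.0 in impaired rats. All these ranges overlapped between groups with neighbouring medians. By M25157mRNA_i_at the 3 young cage rats, at 2751.4 to 5322.1, lay above all 5 aged cage rats, at 1793.1 to 2326.7.

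Over the 79 arrays, the genes whose signal ran most like each enzyme by Spearman's rho were Atp6v1f (0.767) and Cst3 (0.765) for Gpx4, Ssb (0.764) and Cyb5a (0.745) for Cat, and Ssb (0.741) and Dcn (0.740) for Gclm. They were Gadd45a (0.785) and Fgd4 (0.727) for Sod2, Psma5 (0.738) and Atp5pf (0.716) for Sod1, and Dpm2 (0.572) and Rps16 (0.561) for Gpx1. The values were lower for Gstt2, with Ralb (0.504) and Ppp2r2c (0.501), and for Gstk1, with Fdps (0.491) and Mif (0.472). All share the arrays and so their quality.

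Of 75 other antioxidant and glutathione genes listed, 48 were on the array and 40 were tested. In the age comparison 2 of the 40 passed, beside 5.13% of all probe sets tested: Oxr1, an oxidation resistance gene, fell by 0.88 ± 0.21 (adjusted p = 0.00585, lower in 38 of 44), and the selenoprotein Selenow rose by 0.85 ± 0.25 (adjusted p = 0.0333, higher in 36 of 44). Over the 10 groups 11 of the 40 passed, beside 25% of all, led by Selenow, the glutathione transferase Gstm5, the glyoxalase Hagh, the mitochondrial peroxiredoxin Prdx3, Mgst2 and Mgst3. In young hidden platform against cage rats 4 of the 40 passed, beside 5.28% of all, each of them higher, namely Gstm5 (3.07 ± 0.61), Hagh (2.37 ± 0.68), Prdx2 (1.81 ± 0.51) and Txnrd2 (1.75). These 4 calls ended with the ratio of 3' to 5' controls in the fit, where limma called 0 of all 5244 probe sets (an unadjusted p under 0.05 was seen for 210), and without the low-correlation arrays 7 of all passed. In B against impaired rats 5 of the 40 passed, beside 12.0% of all, of which Selenop and Oxr1 rose, and Gpx3, Gstm2 and Nqo1 fell. In the other comparisons none of the 40 passed. Nfe2l2 itself, the gene of Nrf2, gave -0.83 ± 0.28 in aged hidden against visible platform rats (adjusted p = 0.244, lower in 22 of 23).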

How the data were processed

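Total RNA of CA1 punches went through 2 rounds of amplification and biotin labelling, per the labels' protocols. What the authors deposited is 1 intensity for each probe set of an array, on a linear scale. It comes from MAS5, per the submitters' processing notes. Each array's mean without its extreme 2% was 500.09 to 500.98, which shows scaling to 1 level before deposit. The number of arrays limits the precision. Scan dates and detection calls were not analysed here, so batches were not examined. Nothing in the labels says that arrays of a group share more than the group. With 1 array per animal, p-values measure the spread between arrays, in which animals and array quality cannot be told apart.

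Of 8799 probe sets, 59 controls and the 40% with the lowest mean signal were left out, which left 5244. limma 3.58.1 in R 4.3.3 (lmFit, eBayes with trend) was run on log2(signal + 15), two-sided, with 1 mean per group, or age and treatment for the age comparison. It was tested on simulated data. In all 17 comparisons and 2 fits of within-array differences between probe sets of the same gene were made. Alternatives used pseudocounts of 1 and 60, all probe sets without a filter, a filter of 60%, quantile normalization, median centring, robust moderation without trend, weights for array quality, a covariate for the ratio of 3' to 5' controls, arrays with a median correlation under 0.85 left out, 1 fit over all arrays, and each array left out in turn. Leaving out the cage controls was added after seeing the data.

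Probe sets were named through the probe table, in which 7018 had 1 symbol and 308 several. A further 1426 that were not controls had none. Every probe set of the members is named. Of the other antioxidant genes those past the threshold are named, up to 6 by smallest p, otherwise those with the smallest p, and the 2 genes most like each member's brightest probe set. The members, the gene and marker lists and these rules were chosen with earlier results of these data known.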

Additional observations from a re-analysis of the deposited data

Results flagged for a closer look

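In groups of 4 to 10 arrays, 21 of 133 combinations of probe set and group held 1 array whose gap to the nearest other array was wide against the range of the group (Dixon's test), where chance flags about 1 in 20. The share of flags over all probe sets was not counted. Aged yoked rat 63, a low-correlation array, was the lowest of its group for Gpx4 (192.2), Gpx1 X07365_s_at (137.6), Gpx1 X12367cds_s_at (259.1) and Sod1 M21060_s_at (1708.5), and the highest for Sod1 Y00404_s_at (9187.4), Sod1 M25157mRNA_i_at (9687.5), Gpx1 M21210_i_at (53.1) and Gclm S65555_at (231.7). Young hidden platform rat 39, also of low correlation, was the highest for Sod1 Y00404_s_at (8329.4), Sod2 (930.5), Gclm rc_AI233261_i_at (256.6), Gpx1 M21210_i_at (178.9) and Gclc (170.5).

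Impaired rat 8, of low correlation, was the highest for Cat M11670_at (808.0) and Sod2 (1539.5) and the lowest for Sod1 M25157mRNA_i_at (339.5). Impaired rat 83, whose median correlation of 0.223 was the lowest of all arrays, was the lowest for Gpx1 X07365_s_at (323.0). Aged visible platform rat 97 was the highest for Gclm S65555_at (547.8) and aged cage rat 99 for Gpx1 M21210_i_at (54.4), and both were of low correlation. Young yoked rats 59 and 60, which were not of low correlation, were the lowest for Cat M11670_at (44.3) and the highest for Gstt2 D10026_s_at (311.9).

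For 2 probe sets every aged rat lay on 1 side of the young mean in a treatment and on the other side in another treatment. Gstt2 rc_AI138143_at gave an age difference of 0.96 in cage, -1.63 in yoked and -1.02 in visible platform rats, and Sod1 M21060_s_at gave 1.71 in cage and -0.72 in yoked rats. The difference between these particular treatments was not tested beyond the interaction over all 4.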

How the results depend on the processing

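No paired analysis was possible because animal numbers are not shared between groups. The number of the 14 tested probe sets called fell from 3 to 0 in aged minus young under quantile normalization, under median centring and without cage controls, where 97, 77 and 34 of all probe sets passed against 269. Over these settings the count of all probe sets ran from 34 to 1134 there, from 761 to 3921 over the 10 groups (1313 as reported), from 0 to 1850 in age by treatment (16), from 0 to 513 in aged hidden minus visible (1), from 0 to 1484 in young hidden minus cage (277) and from 409 to 1864 in B minus impaired (629). Array quality weights, whose estimation stopped before it had converged in 1 fit, gave 13 member probe sets over the 10 groups, 7 in age by treatment, 3 in aged hidden minus visible, 1 each in aged hidden and aged visible minus cage, 6 in young hidden minus cage, 3 in B minus unimpaired and 4 in B minus young hidden. Of all 5244 probe sets the weights called 3921, 1850, 513, 118, 208, 1484, 436 and 710 in the same order. Without the low-correlation arrays the count was 0 in aged hidden minus visible and in its pairs, and 1 in B minus unimpaired. Of all probe sets or pairs 0, 0 and 87 passed in the same order. Age by treatment and young hidden minus cage keep 1 young cage array in that setting, so their counts are left out here. 1 fit over all arrays gave 2 in age by treatment and 6 in young hidden minus cage, beside 195 and 748 of all. Median centring gave 0 in aged hidden minus visible and in young hidden minus cage, quantile normalization 0 in the former and the 3' to 5' covariate 0 in the latter. Of all probe sets 0, 23, 0 and 0 passed in the same order. B minus impaired gave 7 without a filter, of 19 probe sets, all 7 of them lower. Of all 8740 probe sets 1864 passed there, 392 higher and 1472 lower, and the median of all was -0.385. The pairs for aged hidden minus visible gave 0 without a filter and with the 60% filter, beside 0 of 3281 and 1 of 717 pairs. The latter filter drops Cat M11670_at, Gclm and Gstk1 rc_AI105137_s_at, so no value was had for them. The cause of these moves was not tested.

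Leaving out single arrays gave 6 to 8 over the 10 groups, 0 to 3 in aged minus young (0 without young cage rat 70 or young visible rat 65, 1 without young cage rat 74 or 76 or young yoked rat 60), 0 to 1 in age by treatment, 0 to 1 in aged hidden minus visible, 0 to 4 in young hidden minus cage (0 without cage rat 70 or 76, 1 without hidden rat 3, 37 or 38), 2 to 5 in B minus impaired (5 without impaired rat 47 or aged visible rat 97) and 0 to 1 in both pair fits. Other comparisons stayed at 0. Of all probe sets, 846 to 1565, 171 to 434, 1 to 125, 0 to 9, 4 to 533 and 187 to 895 passed in the same order. The pair fits called 35 to 117 pairs with age and 0 to 5 in aged hidden minus visible. Among the age differences, signs turned for members that no setting called: Gpx1 X07365_s_at 0.054 without low-correlation arrays and 0.13 in 1 fit, Sod1 M21060_s_at 0.11 in 1 fit, Gstt2 D10026_s_at -0.067 with weights and -0.0032 without low-correlation arrays, Sod2 0.050 and 0.089 likewise, and Cat M11670_at 0.039 in 1 fit. Over omissions of single arrays they ran from -0.13 to 0.040 for Cat M11670_at, from -0.16 to 0.035 for Gpx1 X07365_s_at and from -0.11 to 0.079 for Sod2. Signs of uncalled members turned in other comparisons too: over the settings, Gpx4 ran from -0.56 to 0.78 and Gpx1 X12367cds_s_at from -0.51 to 0.47 in aged hidden minus visible, and Gpx1 X07365_s_at from -0.22 to 0.37 in B minus impaired. In aged minus young, weights left the member count at 3 with different probe sets, as Cat and Gclm ended and 2 of Sod1 passed. The weights called 1134 of all 5244 probe sets there.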
